A study of Mus musculus with 6 samples.

Results

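Chemokines and their receptors were measured in the colon of mice in which the genes of histone deacetylases 1 and 2 are targeted for deletion in the intestinal epithelium. Genes were chosen by name. A probe set, the group of probes that reads 1 transcript on the array, was a member where its only symbol in the platform annotation was that of a Ccl, Cxcl, Cx3cl or Xcl ligand, of a Ccr, Cxcr, Cx3cr, Xcr or Ackr receptor, or was Ppbp, Pf4 or Ccrl2. There were 57 such genes among 18193 named genes (89 of 45037 probe sets), of which 35 code for ligands and 22 for receptors. Where a gene had several probe sets, the brightest by its mean over the 6 arrays stands for it, and the others are given beside it. Ccl19 and Ccl21 had no probe set of their own by this choice and were not analysed here.

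HDAC1/2 deficient mice carried floxed Hdac1 and Hdac2 alleles and a Cre recombinase under the villin promoter, which is active in epithelial cells of the small intestine and colon. Leukocytes and stromal cells are not targeted by this promoter. Control mice are labelled as wild type, and whether they carried floxed alleles or Cre was not stated in the sources at hand. The animals were 4 months old by the study's text, were untreated and ate a normal diet. By the study's methods, RNA came from the colons of 3 HDAC1/2 deficient and 3 control mice. Each group has 3 Affymetrix GeneChip mouse genome expression arrays. All values are on the log2 scale of the deposited RMA values, so that a difference of 1 is a 2-fold difference. The log2 fold change (log2FC) is HDAC1/2 deficient minus control, with its standard error (SE) from limma, and levels are compared only within a probe set.

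Chemokines are small secreted proteins that attract leukocytes along a gradient. They are named for the spacing of their first cysteines (C, CC, CXC or CX3C), and most bind receptors that signal through inhibitory G proteins to integrins and the actin skeleton. Inflammatory chemokines are made on demand by epithelium, stroma and leukocytes and draw neutrophils, monocytes and effector T cells. Homeostatic chemokines guide lymphocytes into follicles or into a given stretch of the gut. Atypical receptors bind chemokines without G protein signalling and remove them.

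The arrays of a group correlated at 0.9984 to 0.9988 over all probe sets. Hdac1 was at 9.27, 9.21 and 9.32 on the HDAC1/2 deficient arrays, against 10.60, 10.53 and 10.56 on the control arrays. The brightest Hdac2 probe set was not called (log2FC 0.046, adjusted p = 0.475), and any other Hdac2 probe set is not given here. The study reports that both proteins were depleted in isolated epithelial cells, with HDAC2 still seen in some crypts and villi. The labels name colon epithelium and the study's methods total colon RNA. Smooth muscle markers were strongly expressed, with a mean over 7 genes of 12.39 to 12.46 on HDAC1/2 deficient arrays and 12.88 to 12.89 on control arrays, so the RNA was not of epithelium alone. The 7 exocrine pancreas markers averaged 12.08 to 12.12 on HDAC1/2 deficient and 7.08 to 7.28 on control arrays, and 7 of 8 squamous epithelium markers fell. The Y-linked Eif2s3y was at 8.34 ± 0.14 on HDAC1/2 deficient and 4.09 ± 0.23 on control arrays (SD, n = 3 each). Xist, the RNA that silences 1 X chromosome in female cells, had values of 12.02 ± 0.033 on HDAC1/2 deficient and 12.85 ± 0.034 on control arrays. Each HDAC1/2 deficient array thus held both. The study's methods name 3 mice per group, and the labels give only a replicate number per array. Whether RNA of several animals was pooled is not stated in the sources at hand. The part of these tissue and sex-linked differences in the chemokine values was not tested.

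Of the 57 genes, 29 were higher and 10 lower in HDAC1/2 deficient than in control colon at an adjusted p under 0.05, and 18 did not pass. In percent, 50.9% of the chemokine and receptor genes were higher, against 21.9% of all 18193 genes, and 17.5% were lower, against 28.4% of all genes. More than 2-fold differences were found for 12 members that rose, against 2.25% of all genes, and for 1 that fell, against 1.82% of all genes. The groups of 3 arrays did not overlap for 45 members, and 60.9% of all genes showed no overlap. The median log2 fold change was 0.26 over the members and -0.022 over all genes. Higher genes were 18 of 35 ligands and 11 of 22 receptors, and lower genes 8 ligands and 2 receptors, which were not tested against each other. All 3 ligands of Cxcr3 rose, 4 of 5 ligands of Cxcr2 rose, and no CC or CXC receptor fell. In RNA of a whole tissue, more cells of a type and more RNA per cell cannot be told apart. The p-values here measure the spread between 3 arrays per group, which need not be the spread between animals.

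**Figure D1:**
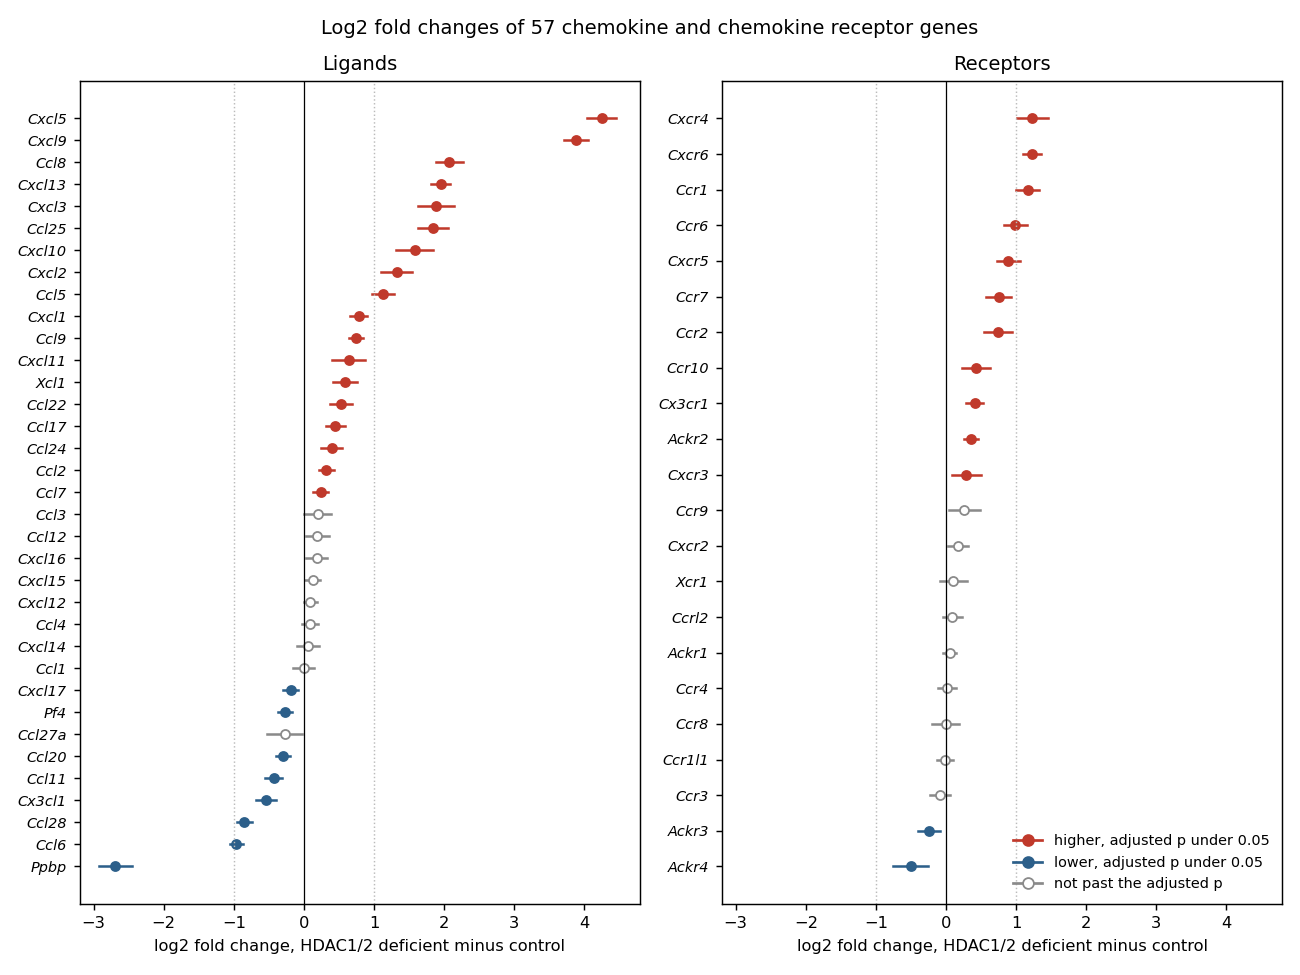
Log2 fold change (HDAC1/2 deficient minus control) of the 35 ligands on the left and the 22 receptors on the right, with 95% confidence intervals from limma and n = 3 arrays per group. Filled red and blue points passed the adjusted p as higher and lower, and open points did not. Cxcl5 (4.25) and Cxcl9 (3.88) lie furthest to the right and Ppbp (-2.69) furthest to the left, while no receptor exceeds Cxcr4 at 1.23.

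The neutrophil attractants that bind Cxcr2 gave the largest rise and the largest fall of the family. Cxcl5, which epithelial cells make in inflammation, was at 9.58, 9.53 and 9.66 in HDAC1/2 deficient colon, against 5.34, 5.17 and 5.52 in control colon. This was a 19.0-fold difference (log2FC 4.25 ± 0.087 SE, adjusted p = 7.72e-08), the 27th largest rise of all genes. Cxcl3, a close relative of Cxcl1 and Cxcl2, was at 5.35, 5.50 and 5.79 in HDAC1/2 deficient colon and 3.67, 3.75 and 3.56 in control colon (log2FC 1.89 ± 0.11 SE, adjusted p = 9.46e-06). Its control values lie near the low end of the scale, where RMA compresses differences. Cxcl2, made by macrophages and epithelium, was at 6.14, 6.31 and 6.06 in HDAC1/2 deficient colon, against 4.66, 4.91 and 4.97 in control colon (log2FC 1.32 ± 0.095 SE, adjusted p = 2.67e-05). Cxcl1 was at 8.92, 8.97 and 8.96 in HDAC1/2 deficient colon and 8.09, 8.24 and 8.19 in control colon (log2FC 0.78 ± 0.051 SE, adjusted p = 1.64e-05). No array of one group reached the other for these 4 genes. The size for Cxcl1 depended on the probe set, since a dimmer one without shared sequence averaged 8.16 in HDAC1/2 deficient and 5.77 in control colon (log2FC 2.39, adjusted p = 2.71e-07), and the other remaining one did not pass (0.26, adjusted p = 0.0574).

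Ppbp, the precursor of the platelet chemokine known as NAP-2, went the other way. It was at 5.09, 5.14 and 5.14 in HDAC1/2 deficient colon, against 7.63, 7.75 and 8.06 in control colon. That is a signal 6.46-fold lower (log2FC -2.69 ± 0.10 SE, adjusted p = 1.36e-06), the 10th largest fall of all genes. Pf4, or platelet factor 4, the other main chemokine of platelet granules, fell far less, at 8.83, 8.89 and 8.88 in HDAC1/2 deficient colon against 9.18, 9.09 and 9.13 in control colon (log2FC -0.27, adjusted p = 0.00205). Of 9 platelet and megakaryocyte markers 1 was higher (Gp1bb, 0.75), 3 were lower (Gp6 -0.27, Gp5 -0.24 and Itgb3 -0.16) and 5 did not pass. Their mean level was 6.91 to 6.95 on HDAC1/2 deficient arrays and 6.92 to 6.95 on control arrays. The part of platelets in the values of Ppbp and Pf4 was not tested.

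Cxcr2, the receptor that these ligands share on neutrophils, did not reach the threshold. It was at 6.08, 5.99 and 6.07 in HDAC1/2 deficient colon, against 5.96, 5.89 and 5.77 in control colon (log2FC 0.17 ± 0.060 SE, adjusted p = 0.0557). The groups did not overlap and the 95% confidence interval was 0.032 to 0.31. Of 6 neutrophil markers S100a8 (4.19), S100a9 (2.17) and Csf3r (0.47) were higher, and the granule protein genes Ngp (-0.053), Mpo (-0.020) and Camp (0.0019) did not pass. S100a8 and S100a9 are made by inflamed epithelium as well as by neutrophils. The neutrophil list averaged 7.32 to 7.35 on HDAC1/2 deficient arrays and 6.17 to 6.28 on control arrays. S100a8 and S100a9 weigh most in that mean, and the list's median log2 fold change was 0.24. The part of neutrophils in the rise of the Cxcr2 ligands was not tested.

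**Figure D2:**
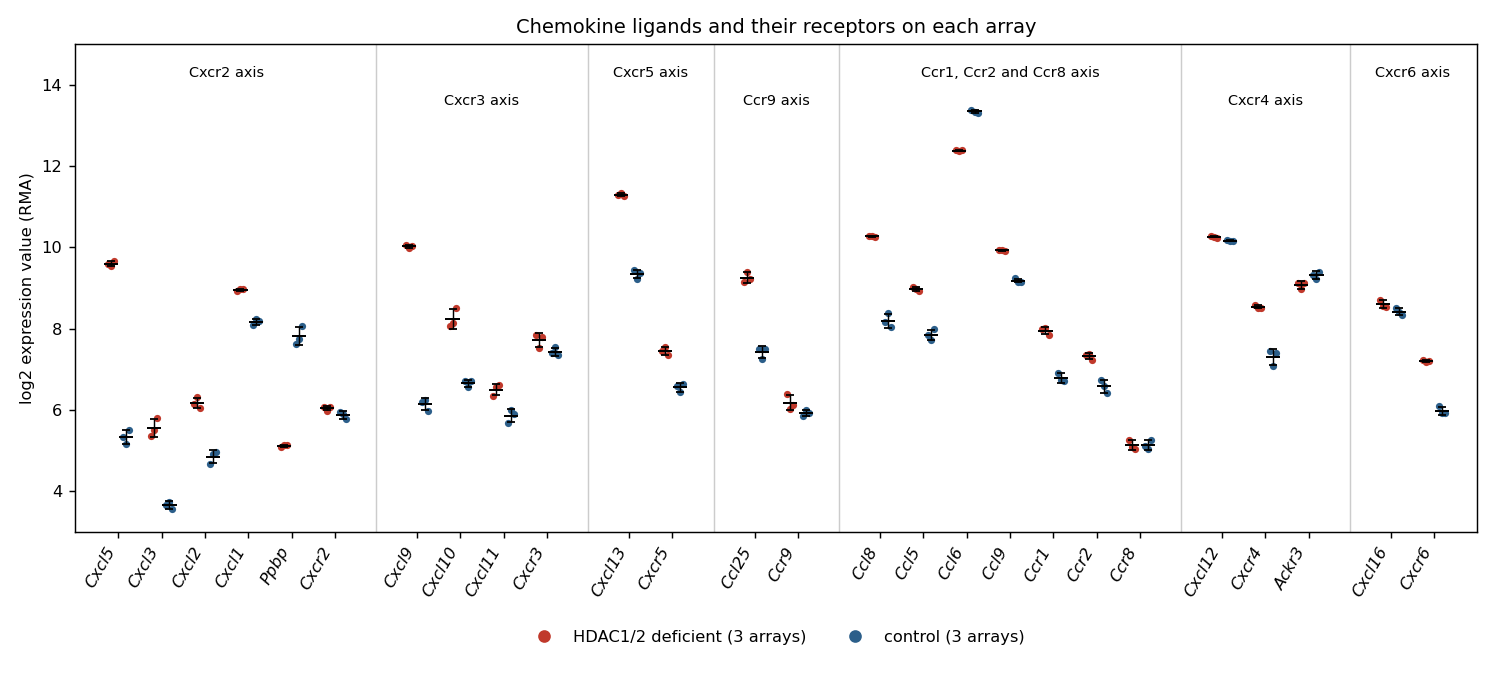
Log2 RMA value on each array for ligands and receptors grouped by axis, HDAC1/2 deficient in red on the left and control in blue on the right of each pair, with a bar at the mean and whiskers of 1 SD over 3 arrays. The groups are far apart for Cxcl5, Cxcl9, Cxcl13, Ccl8 and Ccl25, whereas Cxcr2, Cxcr3, Ccr9 and Ccr8 show little or no gap.

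The bases upstream of the Cxcr2 and Cxcr3 ligands that changed most are shown because several of them moved together. They come from RefSeq (build GRCm38.p6), cover 250 bases before the annotated start and are written 5′ to 3′ on the gene's strand. Capitals mark matches, on either strand, to the NF-kappaB consensus, to an interferon response element (GAAANNGAA), to an interferon gamma activated site (TTCNNNGAA) or to an AP-1 site (TGANTCA). Overlapping matches run together.
Cxcl2, chr5:90903649-90903898, plus strand: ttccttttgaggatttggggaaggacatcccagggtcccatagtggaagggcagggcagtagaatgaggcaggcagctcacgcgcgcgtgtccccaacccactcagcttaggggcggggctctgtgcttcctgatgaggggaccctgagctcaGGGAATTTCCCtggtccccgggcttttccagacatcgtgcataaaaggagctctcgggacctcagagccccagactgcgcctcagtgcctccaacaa
Cxcl3, chr5:90785851-90786100, plus strand: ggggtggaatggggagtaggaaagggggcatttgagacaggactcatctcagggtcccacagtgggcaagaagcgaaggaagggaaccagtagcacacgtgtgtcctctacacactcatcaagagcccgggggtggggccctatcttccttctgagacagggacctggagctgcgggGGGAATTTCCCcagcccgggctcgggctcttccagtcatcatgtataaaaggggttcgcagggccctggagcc
Ppbp, chr5:90768268-90768517, plus strand: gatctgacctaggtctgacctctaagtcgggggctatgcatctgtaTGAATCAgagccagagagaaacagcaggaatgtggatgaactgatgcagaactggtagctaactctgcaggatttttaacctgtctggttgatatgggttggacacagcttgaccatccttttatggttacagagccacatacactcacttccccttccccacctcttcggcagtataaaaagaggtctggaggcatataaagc
Cxcl9, chr5:92328080-92328329, minus strand: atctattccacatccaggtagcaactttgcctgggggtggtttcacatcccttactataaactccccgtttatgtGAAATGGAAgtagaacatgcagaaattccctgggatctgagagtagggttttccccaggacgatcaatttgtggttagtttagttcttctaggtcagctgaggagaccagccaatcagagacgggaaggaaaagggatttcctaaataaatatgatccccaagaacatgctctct
Cxcl10, chr5:92348890-92349139, minus strand: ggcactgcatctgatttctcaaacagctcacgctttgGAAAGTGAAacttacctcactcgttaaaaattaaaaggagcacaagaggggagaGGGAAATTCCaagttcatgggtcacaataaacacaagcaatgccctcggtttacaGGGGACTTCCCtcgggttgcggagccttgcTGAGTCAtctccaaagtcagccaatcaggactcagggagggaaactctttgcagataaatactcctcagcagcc
Cxcl2 and Cxcl3 each hold 2 overlapping NF-kappaB matches, at 97 to 87 and at 73 to 63 bases before the start. The window of Ppbp, which lies between them and Cxcl5 on the chromosome, holds an AP-1 match only. Cxcl9 holds 1 interferon response element (175 to 167 bases before the start). Cxcl10 holds 1 as well (213 to 205), 3 NF-kappaB matches of which 2 overlap, and 1 AP-1 match at 74 to 68. NF-kappaB is the transcription factor of the interleukin 1 and tumour necrosis factor pathways, and interferon response elements bind factors induced by interferons. The shares of all 32851 windows that hold a match were 7.25% for NF-kappaB, 7.13% for the interferon response element, 7.02% for the activated site and 6.75% for AP-1. The 44 members found in the table have 50 windows, of which 12 held an NF-kappaB match, 6 an interferon response element, 4 an activated site and 6 an AP-1 match. NF-kappaB matches lay before Ackr2, Ccl9, Ccr1, Ccr6, Cxcl1, Cxcl2, Cxcl3 and Cxcl10, which rose. They also lay before Ccl20, which fell, and Ccl1, Ccr3 and Ccrl2, which did not pass. Interferon response elements lay before Ccr2, Cxcl9 and Cxcl10, which rose, and Ccl1, Ccl3 and Cxcl14, which did not pass. A match is a description of letters and no binding was measured. Cxcl5 was not in the promoter table.

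The interferon-inducible ligands of Cxcr3, the receptor of effector T cells and NK cells, rose together. Cxcl9 was at 10.05, 9.99 and 10.03 in HDAC1/2 deficient colon, against 6.20, 6.25 and 5.98 in control colon. It was 14.8-fold higher (log2FC 3.88 ± 0.072 SE, adjusted p = 5.07e-08), the 34th largest rise of all genes. Cxcl10 was at 8.07, 8.14 and 8.52 in HDAC1/2 deficient colon and 6.71, 6.56 and 6.71 in control colon (log2FC 1.58 ± 0.11 SE, adjusted p = 2.80e-05). Cxcl11 showed the smallest rise of the 3, with a mean of 6.50 ± 0.14 in HDAC1/2 deficient and 5.86 ± 0.17 in control colon (SD, n = 3 each) and no overlap (log2FC 0.64 ± 0.10 SE, adjusted p = 0.00155). A far dimmer probe set of Cxcl11 did not pass (-0.10, adjusted p = 0.147), and a dimmer one of Cxcl9 rose by 1.90. Cxcr3 itself was at 7.84, 7.53 and 7.80 in HDAC1/2 deficient colon, against 7.39, 7.54 and 7.36 in control colon. Its groups overlapped through the second array of each (log2FC 0.29 ± 0.090 SE, adjusted p = 0.0354). This call rested on single arrays: the adjusted p ran from 0.00519 to 0.110 when each array was left out in turn, and leaving out HDAC1/2 deficient array 1 or 3 or control array 1 or 3 ended it (adjusted p = 0.108, 0.110, 0.0948 and 0.108). Cxcr3 lies on the X chromosome, and the arrays differed in sex-linked transcripts as described above. The part of that difference in the Cxcr3 values was not tested.

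The genes of interferon gamma signalling were mixed. Of 9 measured, 4 were higher and 3 lower, with a median log2 fold change of 0.0018. Ifng, the cytokine, rose by 0.82, Irf8, a transcription factor of myeloid cells, by 0.69 and Socs1, a feedback inhibitor, by 0.57, whereas the receptor chain Ifngr1 fell by 0.44. NK and cytotoxic cell markers rose in 5 of 6 cases (Gzma 2.55, Klrd1 1.44, Gzmb 1.24 and Nkg7 1.00), and their mean was 7.10 to 7.24 on HDAC1/2 deficient and 5.89 to 6.20 on control arrays. Of 7 T cell markers 6 rose (Cd3g 1.62, Cd28 1.53, Cd3d 0.97 and Cd2 0.76), with a mean of 7.69 to 7.72 on HDAC1/2 deficient and 6.84 to 6.92 on control arrays. Prf1 and Cd8a were the members of these lists that did not pass. The part of these cell markers in the Cxcr3 ligand values was not tested.

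The chemokine and the receptors of B cell follicles were higher. Cxcl13, which stromal cells of follicles make to attract B cells, was at 11.29, 11.33 and 11.27 in HDAC1/2 deficient colon, against 9.44, 9.23 and 9.36 in control colon (log2FC 1.95 ± 0.059 SE, adjusted p = 4.61e-07). Its second probe set rose by 1.85. Cxcr5, its receptor on B cells and follicular helper T cells, was at 7.44, 7.55 and 7.35 in HDAC1/2 deficient colon and 6.59, 6.44 and 6.64 in control colon (log2FC 0.89 ± 0.072 SE, adjusted p = 4.68e-05). Ligand and receptor thus rose together here, with no overlap between groups. Ccr7, which draws naive lymphocytes and dendritic cells into lymphoid tissue, rose by 0.75 (adjusted p = 1.37e-04). Ccr6, on B cells and interleukin 17 producing T cells, was at 8.22, 8.26 and 8.19 in HDAC1/2 deficient colon, against 7.14, 7.38 and 7.18 in control colon (log2FC 0.99, adjusted p = 2.25e-05). Its only chemokine ligand, the epithelial product Ccl20, moved in the opposite direction, at 8.65, 8.69 and 8.66 in HDAC1/2 deficient colon against 8.95, 8.93 and 9.03 in control colon (log2FC -0.30, adjusted p = 0.00108). Beside these, 5 of 6 B cell markers rose (Cd79b 1.65, Ms4a1 1.48, Cr2 0.99 and Cd79a 0.78), and the list averaged 8.19 to 8.21 on HDAC1/2 deficient and 7.29 to 7.32 on control arrays. Of 7 genes of lymphotoxin signalling, which maintains follicles, 4 rose (among them Ltb, 1.1) and Ltbr, the receptor, fell by 0.33. How much of the Cxcl13 and Cxcr5 difference goes with the B cell markers was not tested.

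Inflammatory CC ligands, which attract monocytes, macrophages, eosinophils and T cells, moved in both directions. Ccl8, which in mice acts through Ccr8 and is made by macrophages, rose most among them, at 10.28, 10.27 and 10.25 in HDAC1/2 deficient colon, against 8.17, 8.38 and 8.03 in control colon (log2FC 2.08 ± 0.083 SE, adjusted p = 1.70e-06). Ccl5, also called RANTES and made by T and NK cells, was at 9.01, 8.98 and 8.94 in HDAC1/2 deficient colon against 7.84, 7.73 and 7.98 in control colon (log2FC 1.13, adjusted p = 1.09e-05). The pair of mouse chemokines Ccl9 and Ccl6, neighbours on chromosome 11 that both bind Ccr1, moved in opposite directions. Ccl9 rose by 0.74 (adjusted p = 8.84e-06) and its second probe set by 0.85. Ccl6 was at 12.39, 12.36 and 12.39 in HDAC1/2 deficient colon, against 13.39, 13.33 and 13.31 in control colon (log2FC -0.96 ± 0.041 SE, adjusted p = 2.38e-06), and its second probe set fell by 1.31. The monocyte attractants Ccl2 and Ccl7 rose by 0.32 and 0.24, though Ccl7 did not pass the methods' t-test after adjustment (0.064). Of the eosinophil attractants Ccl24 rose by 0.39 and Ccl11, also called eotaxin, fell by 0.43. Ccl3 (0.20), Ccl12 (0.19), Ccl4 (0.085) and Ccl1 (-0.0036) did not pass.

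Of the receptors Ccr1, Ccr2, Ccr3, Ccr8 and Ccr1l1, Ccr1 and Ccr2 were higher and the others did not pass. Ccr1, on neutrophils, monocytes and macrophages, was at 7.99, 8.02 and 7.84 in HDAC1/2 deficient colon, against 6.92, 6.73 and 6.71 in control colon (log2FC 1.16 ± 0.072 SE, adjusted p = 1.33e-05), and its far dimmer second probe set rose by 0.64. Ccr2, the receptor of inflammatory monocytes, was at 7.36, 7.38 and 7.23 in HDAC1/2 deficient colon and 6.74, 6.59 and 6.41 in control colon (log2FC 0.75 ± 0.086 SE, adjusted p = 3.01e-04). Of the other Ccr2 probe sets 2 rose (0.81 and 0.19) and the dimmest did not pass (0.20). Ccr8, on skin and regulatory T cells, was at 5.27, 5.10 and 5.03 in HDAC1/2 deficient colon against 5.11, 5.03 and 5.27 in control colon, so that its 2 groups covered the same range (log2FC -0.0048, adjusted p = 0.972). The 95% interval for Ccr8 was -0.20 to 0.19, at a signal in the 20.5th percentile of all probe sets. Ccr3, the eosinophil receptor, and Ccr1l1, a receptor-like gene beside Ccr1, had log2 fold changes of -0.086 and -0.018. The macrophage markers rose in 7 of 8 cases (C1qa 1.33, C1qb 1.19, Csf1r 1.12 and C1qc 1.07) and averaged 9.37 to 9.39 on HDAC1/2 deficient and 8.34 to 8.48 on control arrays. Monocyte markers were 1 higher, 2 lower and 1 not past the test, and 3 of 4 eosinophil markers rose (among them Siglecf, 1.74). Their part in the values of Ccl8, Ccr1 and Ccr2 was not tested.

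The gut-homing chemokines Ccl25 and Ccl28 moved in opposite directions. Ccl25, which the small intestinal epithelium and thymus make, was at 9.14, 9.40 and 9.22 in HDAC1/2 deficient colon, against 7.49, 7.24 and 7.51 in control colon (log2FC 1.84 ± 0.092 SE, adjusted p = 4.88e-06). A second, dimmer probe set for Ccl25 averaged 7.63 in HDAC1/2 deficient and 7.48 in control colon and did not pass (0.16, adjusted p = 0.0646), so its rise rests on 1 probe set. Ccr9, the receptor of Ccl25 on small intestinal lymphocytes, was at 6.39, 6.03 and 6.12 in HDAC1/2 deficient colon and 5.84, 5.99 and 5.93 in control colon and did not pass (log2FC 0.26 ± 0.093 SE, adjusted p = 0.0601). Of its 4 other probe sets 1 did (0.25, adjusted p = 0.0388), and the rest lay between 0.083 and 0.17. Ccl28, which colonic epithelium makes to draw antibody-secreting cells, was lower in HDAC1/2 deficient colon, at 11.21, 11.30 and 11.23 on its arrays against 12.11, 12.05 and 12.12 in control colon (log2FC -0.85, adjusted p = 6.91e-06). Both other probe sets of Ccl28 fell too (-0.34 and -0.80). Its receptor Ccr10 rose by 0.42 (adjusted p = 0.00569), a call that ended under the methods' t-test (adjusted p = 0.0668). Beside it, all 5 genes of the plasma cell list rose (Mzb1 1.81, Jchain 1.24 and Prdm1 1.12), with Sdc1 (0.39) and Xbp1 (0.17) rising least. The part of plasma cells in the Ccr10 values was not tested. Ccl27a, the skin ligand of Ccr10, had a log2 fold change of -0.27 and did not pass (adjusted p = 0.0816). Of 8 general epithelial markers 4 rose and 2 fell, with a mean of 13.29 to 13.32 on HDAC1/2 deficient and 13.14 to 13.16 on control arrays.

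In the Cxcr4, Cxcr6 and Cx3cr1 axes the receptor was called higher, and the brightest probe set of the ligand was not. Cxcr4, found on most leukocytes, was at 8.58, 8.52 and 8.51 in HDAC1/2 deficient colon, against 7.45, 7.08 and 7.39 in control colon (log2FC 1.23 ± 0.094 SE, adjusted p = 3.59e-05). Its ligand Cxcl12, a product of stromal cells, was at 10.27, 10.26 and 10.24 in HDAC1/2 deficient colon against 10.19, 10.16 and 10.15 in control colon and did not pass (log2FC 0.091, adjusted p = 0.107), nor did its other probe sets (0.13 and 0.013). Ackr3, which removes Cxcl12, was lower by a log2 fold change of -0.24 (adjusted p = 0.0234). That call was lost without HDAC1/2 deficient array 2 (adjusted p = 0.0669) and without control array 1 or 3 (0.0651 and 0.0748). Cxcr6, on resident T cells and innate lymphocytes, was at 7.24, 7.18 and 7.20 in HDAC1/2 deficient colon, against 6.09, 5.92 and 5.93 in control colon (log2FC 1.23 ± 0.057 SE, adjusted p = 3.38e-06), and its second probe set rose by 1.55. Its membrane-bound ligand Cxcl16 was at 8.71, 8.57 and 8.52 in HDAC1/2 deficient colon against 8.50, 8.42 and 8.33 in control colon and did not pass (log2FC 0.18, adjusted p = 0.0638). A dimmer probe set for Cxcl16 did (0.26, adjusted p = 0.0344). Cx3cr1, the receptor of resident intestinal macrophages, rose by 0.41 (adjusted p = 4.29e-04). Its dimmer second probe set was at 0.016 (adjusted p = 0.854), and the mean of both gave 0.21. Cx3cl1, or fractalkine, its ligand on epithelium and endothelium, was lower by a log2 fold change of -0.54 (adjusted p = 3.08e-04). Of its dimmer probe sets 2 were lower (-0.27 and -0.23) and 1 did not pass (-0.16). Blood endothelium markers were lower in 4 of 6 cases and higher in 0 (median -0.27), with a mean of 7.60 to 7.74 on HDAC1/2 deficient and 7.83 to 7.93 on control arrays, and their part in the fall of Cx3cl1 was not tested.

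In the Xcr1 and Ccr4 axes the ligands rose and the receptors did not pass. Xcl1, a product of activated T and NK cells, rose by 0.59, and Xcr1, its receptor on cross-presenting dendritic cells, had a log2 fold change of 0.10 and did not pass (adjusted p = 0.368). Ccl22 and Ccl17, both made by dendritic cells, rose by 0.53 and 0.45, although Ccl22 did not pass the methods' t-test after adjustment (0.0575). Their receptor Ccr4 on regulatory and type 2 helper T cells was at 0.017 (adjusted p = 0.840, 95% interval -0.11 to 0.15). Dendritic cell markers rose in 4 of 6 cases (Itgae 1.30 and Itgax 0.91 by most, though both are found on other leukocytes too). Batf3 (0.13) and Flt3 (0.038) did not pass.

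Atypical receptors and the remaining CXC ligands differed by less than 2-fold. Ackr2, which scavenges inflammatory CC chemokines in lymphatic endothelium, rose by 0.36 (adjusted p = 2.79e-04), with both other probe sets not past the test (0.20 and 0.028). Ackr4, which removes Ccl25 and the ligands of Ccr7, was at 6.11, 6.48 and 6.13 in HDAC1/2 deficient colon, against 6.85, 6.64 and 6.74 in control colon (log2FC -0.51, adjusted p = 0.00684). Its other 2 probe sets did not pass (-0.021 and 0.11), so that the direction for Ackr4 depends on the probe set. Ackr1, the Duffy receptor of venules and red cells (0.050), and Ccrl2, which binds chemerin (0.093), did not pass. Cxcl17, a mucosal chemokine, was lower (-0.18, adjusted p = 0.0142), but not without HDAC1/2 deficient array 3 (adjusted p = 0.0538). Cxcl14 (0.057) and Cxcl15, a lung chemokine of mice (0.13), did not pass, and each has a second probe set below 0 that did not pass either (-0.093 and -0.034). Lymphatic endothelial markers, a list that sits beside Ackr2 and Ackr4, were 1 higher, 3 lower and 2 not past the test.

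Chemokine genes lie in clusters that arose by duplication, and most clusters held both called and uncalled genes or calls in both directions. Along chromosome 5 (GRCm38.p6 order) Cxcl5, Ppbp, Pf4, Cxcl3, Cxcl15, Cxcl1 and Cxcl2 follow each other with no other protein-coding gene of the annotation between them. Within that run 4 rose, 2 fell and Cxcl15 was not called, and Cxcl5 (4.25) and Ppbp (-2.69) stand next to each other. The Cxcl9, Cxcl10 and Cxcl11 cluster of the same chromosome rose as a whole, by 3.88, 1.58 and 0.64. On chromosome 11, Ccl2, Ccl7, Ccl11, Ccl12, Ccl8 and Ccl1 had 3 rises and 1 fall, and Ccl5, Ccl9, Ccl6, Ccl3 and Ccl4 had 2 rises and 1 fall. Ccl22, Cx3cl1 and Ccl17 of chromosome 8 went up, down and up. In the chromosome 9 cluster from Cxcr6 to Ccr2, Cxcr6, Ccr1 and Ccr2 rose and Xcr1, Ccr1l1 and Ccr3 between them did not pass.

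**Figure D3:**
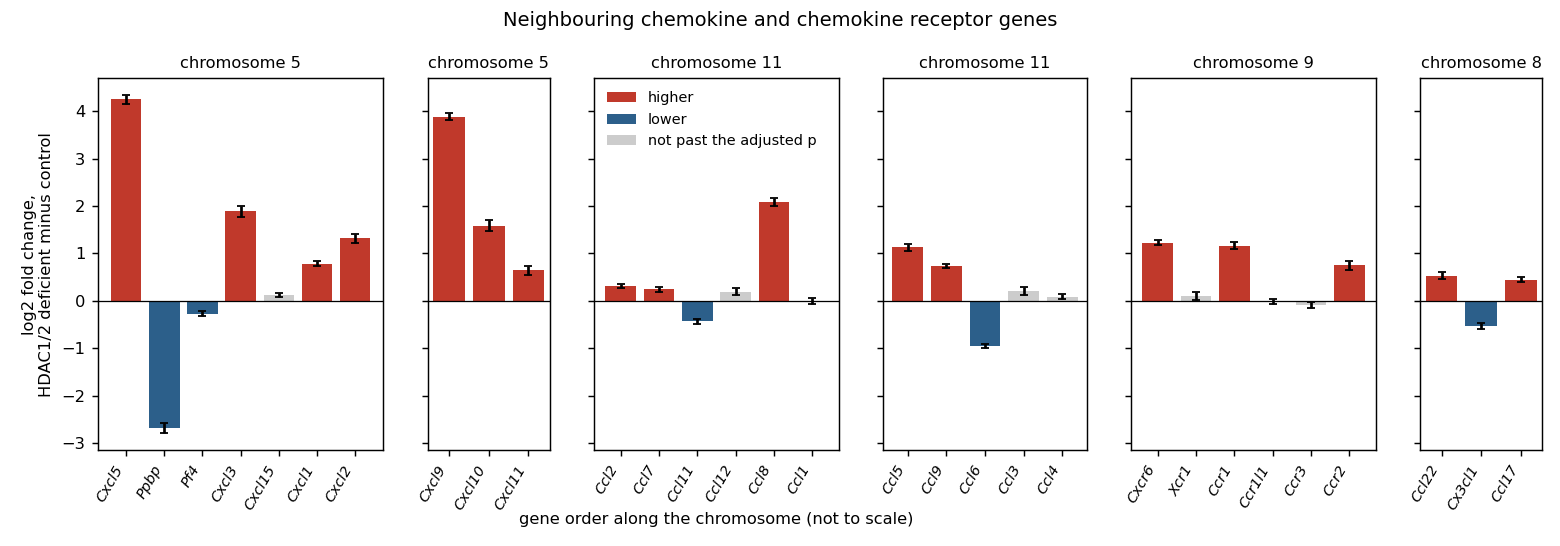
Log2 fold change (HDAC1/2 deficient minus control) of neighbouring members in their order along each chromosome, not to scale, with the standard error from limma as whiskers and n = 3 arrays per group. Red and blue bars passed the adjusted p as higher and lower, grey bars did not. Opposite signs stand side by side at Cxcl5 and Ppbp, at Ccl9 and Ccl6, and at Ccl22, Cx3cl1 and Ccl17.

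Several probe sets of a gene did not always give the same call. 37 genes had 1 probe set and 20 had several. Of their 32 other probe sets 13 passed in the same direction as the brightest one, 7 did not pass where the gene did not either, 10 of 23 did not pass where the gene did, 2 passed where the gene did not (Ccr9 and Cxcl16), and 0 passed in the opposite direction. By sign alone 4 went the other way, in Ackr4, Cxcl11, Cxcl14 and Cxcl15. Among the 44 members at or above the 40th percentile of signal over all probe sets 25 rose and 10 fell, and among the 13 dimmer members 4 rose and 0 fell. Brighter genes are called more often in general. In a fit of probe sets above that percentile only, 29% of 13801 genes were higher and 37.3% lower. There 27 of 44 members were higher and 10 lower.

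Downstream of the receptors, 12 of 20 genes of chemokine signal transduction rose, 1 fell and 7 did not pass, with a median log2 fold change of 0.53. For this list and those below, the shares over all genes were 21.9% higher and 28.4% lower. Itgal (1.92) and Itgb2 (1.37), the chains of the integrin LFA-1 that chemokines activate on leukocytes, Rac2 (1.71), a leukocyte GTPase, and Coro1a (1.51), an actin regulator, changed most. Itgal, Itgb2, Rac2 and Coro1a are mainly expressed in leukocytes, and their part in the list's count was not tested. Of 11 genes that desensitise the receptors 2 rose and 5 fell, led by Rgs16 (-0.54), which speeds G protein inactivation, Rgs19 (0.53) and the arrestins Arrb2 (0.50) and Arrb1 (-0.41). Upstream, of 16 genes of interleukin 17, interleukin 1 and tumour necrosis factor signalling 7 rose and 5 fell (median 0.052). Nfkbiz (1.52), a cofactor of NF-kappaB at interleukin 17 targets, Zc3h12a (1.15), an RNase that degrades cytokine transcripts, and Il1b (0.98) rose, the receptor Il1r1 fell (-0.71), and Il17a was at 0.10 and did not pass. Of 9 enzymes that cleave chemokines 3 rose and 2 fell (33.3% and 22.2%), not far from the shares over all genes. Mmp7, the epithelial matrilysin, rose by 1.82, Mmp12 of macrophages by 1.12 and Mmp9 by 0.31, and Dpp4, which trims Cxcl10 and other chemokines, had a log2 fold change of -0.93. Of 11 other chemoattractants and their receptors 7 rose and 0 fell (median 0.36), led by Il16 (1.07), the formyl peptide receptor Fpr2 (0.87), Mif (0.66) and the chemerin receptor Cmklr1 (0.58).

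**Figure D4:**
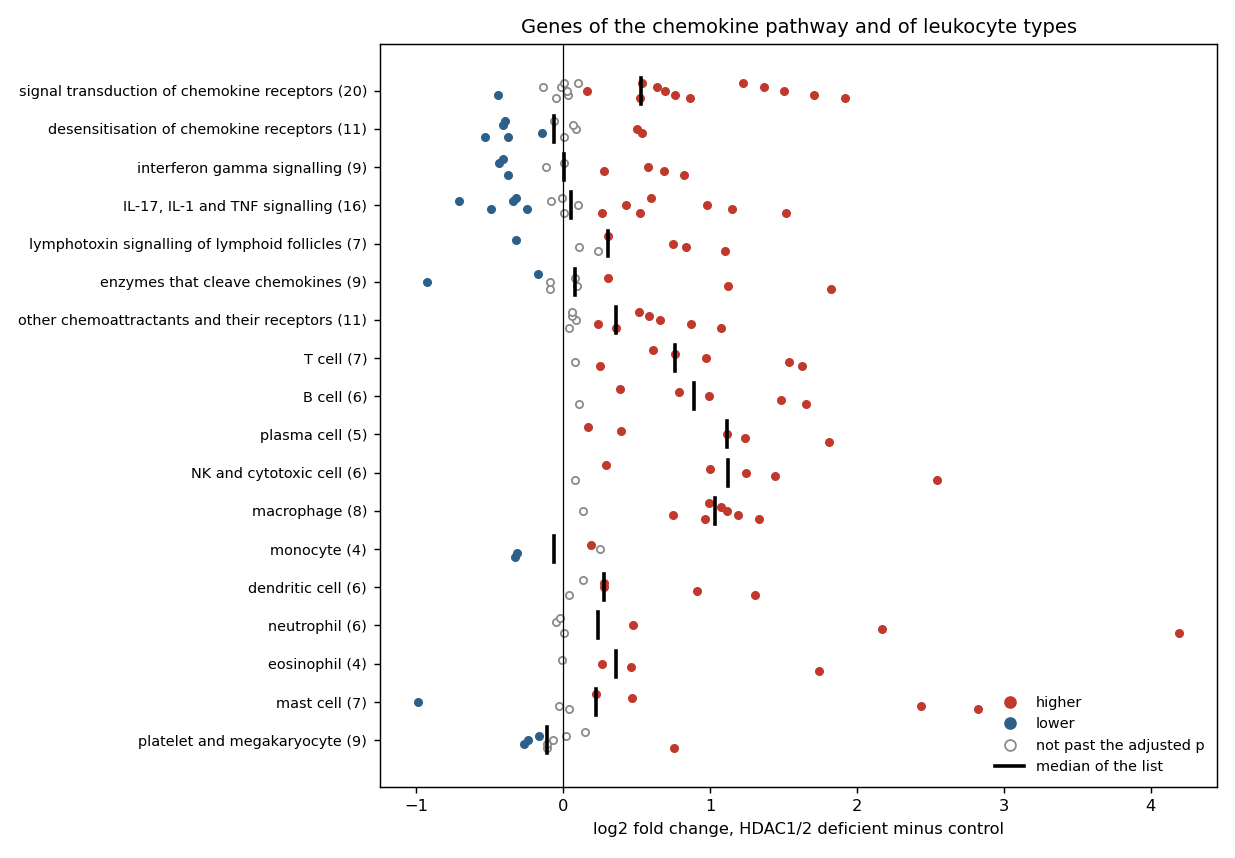
Log2 fold change (HDAC1/2 deficient minus control) of each measured gene of the pathway lists and the leukocyte and platelet marker lists, with the number of genes in brackets and the list's median as a black bar. Red and blue points passed the adjusted p as higher and lower, open points did not. Medians of the lymphocyte and macrophage lists lie between 0.76 and 1.12, and that of the platelet list at -0.11.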

How the data were processed

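Total RNA of the colon of 3 HDAC1/2 deficient and 3 control mice was hybridized to Affymetrix GeneChip mouse genome expression arrays. The authors background-corrected and normalized the signals by RMA and deposited log2 values per probe set. The submitters' processing notes also name RMA. Groups and replicate numbers come from the sample labels. After 64 control probe sets were left out, limma 3.58.1 (R 4.3.3) was fitted to 45037 with lmFit and eBayes for HDAC1/2 deficient minus control without covariates. The Benjamini-Hochberg method adjusted p over these. Genes were called at an adjusted p under 0.05. In the platform annotation 34945 probe sets have 1 symbol, 932 several and 9160 none. No gene was named from several, which left out 4 probe sets with chemokine or receptor symbols.

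Members, roles, pathway lists and marker lists were chosen with earlier results of these data known. Every member is named. Values per array are given for the 12 largest changes past the test and for their receptors, with some others added after the values were seen, and up to 4 genes of the largest change are named per list, with others named where a count turns on them. Alternatives were the methods' t-test, quantile normalization, centring, a filter at the 40th percentile of signal, trend and robust eBayes, omission of probe sets with the suffix _s_at, _x_at or _a_at (shared sequence), the mean of a gene's probe sets, the replicate number as a block, and each array left out. Scripts were tested on simulated data, and figures were drawn with matplotlib 3.10.9. The number of arrays limits the precision. No source used here gave scan dates or batches.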

Additional observations from a re-analysis of the deposited data

How the results depend on the processing

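Over the alternatives, 26 to 33 members were higher and 8 to 11 lower. Of all measured genes 17.1 to 29% were higher and 22.1 to 37.3% lower. The filter by signal left 44 members and the omission of suffixes 50. Of the 39 called members, 32 kept their call in every setting that measured them and 36 in every leave-one-out fit. Not all called members were measured in each setting. The filter by signal dropped Cxcl2, Cxcl3, Cxcl11 and Xcl1, and the omission of suffixes dropped Ccr6 and Ackr3. After Benjamini-Hochberg adjustment the methods' t-test called 26 higher and 8 lower, and Ccl22, Ccl7 and Ccr10 lost their call only there (adjusted p = 0.0575, 0.064 and 0.0668). Deviations of arrays with the same replicate number correlated at -0.0258 to 0.0964, and those with other numbers at -0.103 to 0.0304. With 3 arrays per group these values cannot decide whether the numbers pair the arrays. With the replicate block 29 members were higher and 11 lower. Cxcr3 lost its call with the block (adjusted p = 0.0727). With all probe sets of a gene averaged, 2 members were more than 2-fold lower (Ppbp and Ccl6, -1.13) in place of 1. Without probe sets of the suffixes _s_at, _x_at and _a_at the log2 fold change of Ackr4 was 0.11 (adjusted p = 0.302) and that of Cxcl14 -0.093. The mean of probe sets gave -0.018 for Cxcl14. Leaving out 1 array moved members that did not pass across 0: their log2 fold changes ran over Ccr1l1 -0.048 to 0.011, Ccr4 -0.023 to 0.050, Ccr8 -0.073 to 0.061 and Ccl1 -0.054 to 0.061. The cause of these changes was not tested. Cxcl16 passed in 6 settings, Cxcl12 in 5, Ccl27a in 4, Ccr9 in 3, Ccl12 and Cxcr2 in 2, and Ccl3 and Cxcl15 in 1. The setting for Cxcl15, and 1 of those for Cxcl12, was the methods' t-test without adjustment. RMA compresses differences of the 13 dim members.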
